A study of Mus musculus with 8 samples.

Results

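The methylome described here is that of resting B lymphocytes from mouse spleen, which make up 4 of the 8 samples of the series and 2 of its 4 deposited files. Its members were chosen by sample label, and the 2 files, 1 from females and 1 from males, were read at the 18652664 autosomal CpGs that had 5 or more reads in each. Reads were summed in windows of 1 kb holding 3 or more such CpGs, which gave 1995226 windows, of which 1950708 could also be read in both T cell files. In every such sum a read counts once at each CpG it covers.

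Whole-genome bisulfite sequencing was run on spleen cells of C57BL/6J mice, an inbred strain, 6 to 8 weeks old. B cells were taken as CD43-, which leaves out most activated B cells and plasma cells, and T cells were sorted as naive CD4+, CD62L high, CD44 low and CD25-, with each replicate pooled over animals. The 4 groups (female B, male B, female T and male T cells) held 2 samples and 1 file each, and the sources used here do not say whether a file merged its 2 samples. There was therefore no replicate within a group. The B cell files are given side by side throughout, and a difference between B and T cells was seen once in each sex.

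In mammals, DNA methylation is a methyl group on the cytosine of a CpG, copied to the new strand when a cell divides. Most CpGs carry it, while CpG-rich gene starts are usually free of it and active enhancers usually have less of it. At imprinted loci 1 parental copy is methylated and the other is not. Bisulfite converts unmethylated cytosine, so that the share of unconverted reads is the level of methylation, with 5-methylcytosine and 5-hydroxymethylcytosine read alike. B cells are the antibody lineage of lymphocytes, and resting B cells have rearranged their antigen receptor genes but have not yet met antigen. A level between the extremes in pooled cells does not tell whether cells, or the 2 copies within a cell, differ.

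The B cell label was checked at Cd79a, which encodes a signalling chain of the B cell receptor, Ms4a1, which encodes the surface protein CD20, and Pax5, the transcription factor that commits cells to the B lineage. A promoter here is the annotated gene start with 1 kb to either side. The Cd79a promoter (7: 24896381-24898381) was 10.5% methylated in the female B cell file (95% Wilson interval 8.25% to 13.2%, 582 reads) and 17.0% in the male file (14.2% to 20.2%, 611 reads). The T cell files, female before male as in every pair of values, stood at 83.4% and 79.3%. The Ms4a1 promoter was 10.5% methylated in female B cells (6.66% to 16.2%, 162 reads) and 15.3% in male B cells (11.6% to 20%, 281 reads), against 93.6% and 93.5% in T cells. At Pax5 (4: 44709487-44711487) the B cell files gave 4.44% and 5.24% over 743 and 1031 reads, and the T cell files 19.6% and 20.6%. In all 3 genes both B cell files lay below both T cell files. The Pax5 difference of -15.3 points (adjusted p 0.000165 in the quasi-binomial model used for all promoters) is under the 20 points used for a call, and the intervals cover counting error only. They take counts at neighbouring CpGs as independent, which those of a shared read are not, so they can be too narrow.

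The bases before the starts of Cd79a and Pax5 show how differently these genes are built. Each sequence below is the 250 bases before the most upstream start annotated by GENCODE or RefSeq, which for Pax5 lies upstream of the GENCODE gene start used for its promoter and distances, 5′ to 3′ on the gene's own strand, read from the GRCm38 genome of RefSeq, with CpGs in capitals. They lie at chr7:24897131-24897380 on the plus strand for Cd79a and at chr4:44710695-44710944 on the minus strand for Pax5.
Cd79a: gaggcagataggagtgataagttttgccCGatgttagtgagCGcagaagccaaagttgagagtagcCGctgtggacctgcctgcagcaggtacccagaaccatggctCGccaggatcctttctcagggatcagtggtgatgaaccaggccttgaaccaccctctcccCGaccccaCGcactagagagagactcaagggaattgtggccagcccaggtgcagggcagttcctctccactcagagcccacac
Pax5: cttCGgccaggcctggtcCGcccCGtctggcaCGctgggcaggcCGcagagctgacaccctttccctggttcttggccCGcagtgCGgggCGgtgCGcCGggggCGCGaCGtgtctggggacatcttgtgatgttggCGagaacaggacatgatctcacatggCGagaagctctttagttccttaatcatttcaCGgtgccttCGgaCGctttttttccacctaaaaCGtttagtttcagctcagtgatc

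Cd79a has 6 CpGs in this stretch, which together had a level of 6.82% in the female and 4.49% in the male B cell file, while the T cell files gave 83.5% and 89.8%. Pax5 has 19 CpGs and was at 0% and 0.28% in B cells over 336 and 357 reads, and at 5.07% and 6.67% in T cells. The Cd79a level thus rests on fewer positions than that of Pax5.

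**Figure D1:**
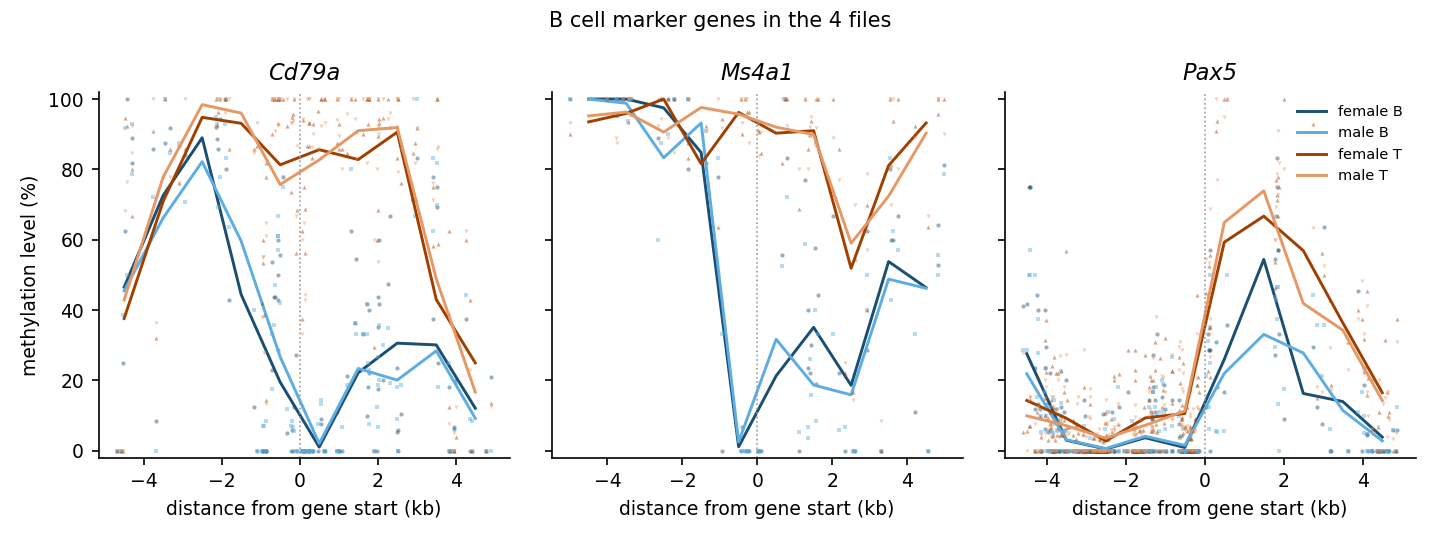
Methylation level (%) of single CpGs (points) and of 1 kb bins (lines) within 5 kb of the starts of Cd79a, Ms4a1 and Pax5, in the female and male B cell files (blue) and T cell files (brown); distance is in kb, positive into the gene. The B cell lines fall to 1.06% and 2.08% in the first kb of Cd79a and to 1.15% and 2.53% in the kb before Ms4a1.

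Around the 3 starts, low methylation in B cells reached different distances. At Ms4a1 the bin from 1 to 2 kb before the start had a B cell level of 84.8% and 93.2%, and the next kb towards the start 1.15% and 2.53%. Into the gene the level was 35.1% and 18.7% between 1 and 2 kb and 46.4% and 46.2% between 4 and 5 kb, where T cells stood at 93.2% and 90.3%. At Cd79a, B cells stayed at 30.6% and 20.1% in the kb from 2 to 3 kb inside the gene, against 90.6% and 91.9% in T cells. At Pax5 the 4 kb before the start were at most 4.14% methylated in either B cell file and at most 11.3% in either T cell file. In the first kb of the gene, T cells were at 59.3% and 64.9%, and B cells at 26% and 22%.

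Over all autosomal CpGs with 5 or more reads in both files, 80.6% of female and 79.7% of male B cell reads were methylated, and 80.1% of both together. The 95% interval of counting error was 0.00467 points or less to either side, smaller than the difference between the files. The mean depth was 14.8 and 16.4 reads per CpG. Counted CpG by CpG, 21.1% of CpGs had every read methylated and 39.7% lay from 90% to under 100%. At the other end, 6.05% had no methylated read and 2.59% lay above 0% and under 10%. Between them, 2.15% lay from 10% to under 30%, 7.26% from 30% to under 70% and 21.2% from 70% to under 90%.

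Windows were sorted by level into unmethylated (under 10%), low (10% to under 30%), partly methylated (30% to under 70%) and high (70% or more). In B cells 1820314 windows (91.2%) were high, 125996 (6.31%) partly methylated, 23667 (1.19%) low and 25249 (1.27%) unmethylated. The limits cut a continuous range. In the point below 70% there were 8400 windows and in the point above it 9978, while the 10% limit had 1387 windows in the point below and 1417 in the point above, and the 30% limit 1292 and 1372. The counts of windows were smallest from 15% to under 20%, with 5488 windows. A window of the median female depth, 97 reads, has a 95% Wilson interval of 82.1% to 94.3% at a level of 89.7%.

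**Figure D2:**
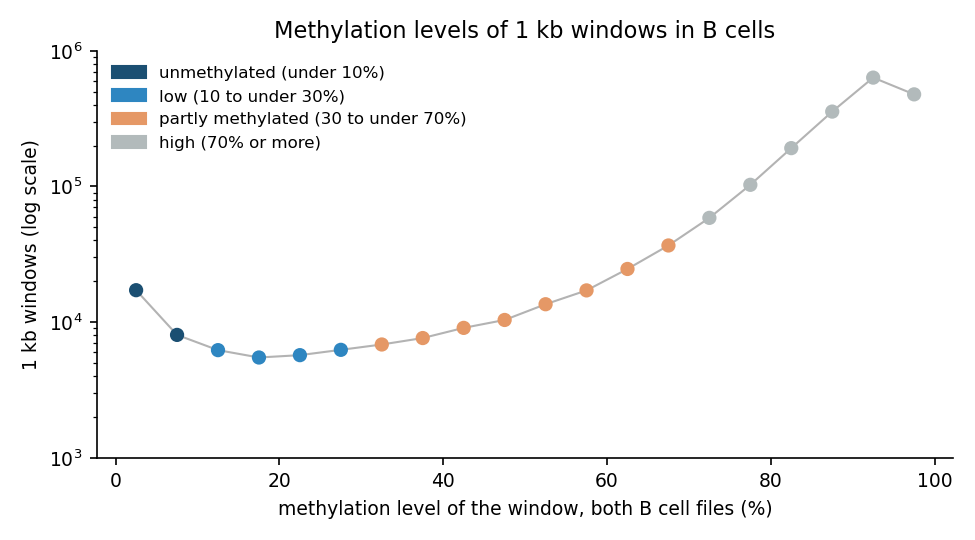
Number of 1 kb windows (log scale) in each 5-point range of methylation level (%), reads of both B cell files summed; colours give the 4 classes. Counts fall from 17197 windows under 5% to 5488 from 15% to under 20% and rise to 633941 from 90% to under 95%.

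The classes differed in sequence. Unmethylated windows held a median of 46 measured CpGs and a GC content of 55.7%, and 12.1% of their bases were marked as repeats in the reference. Low windows held 15 CpGs at a GC content of 48.1%, with 18.0% repeat bases. Partly methylated windows held 8 CpGs at 44.6% GC, and high windows 7 CpGs at 42.3% GC with 32.1% repeat bases. Unmethylated windows thus took in 6.78% of the CpGs. Depth moved with class in 1 file more than in the other. Per CpG, the median was 14.5 reads in unmethylated and 13.6 reads in high windows in females, and 17.5 and 14.9 reads in males. The part of this in the lower pooled level of the male file was not tested. As a mean over CpGs, in which depth has no weight, the files stood at 80.8% and 80.6%.

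The classes were compared between the female and male B cell files. Of windows unmethylated in the female file, 94.0% were unmethylated in the male file, and of its high windows 98.2% were high there too. The middle classes agreed less, at 77.5% of low and 74.5% of partly methylated windows of the female file. Windows that were unmethylated in 1 file and 2 or more classes away in the other numbered 5 from the female and 7 from the male side. The median absolute difference between the files was 0.712 points in unmethylated, 3.32 in low, 5.24 in partly methylated and 2.65 points in high windows. Fisher's exact test on reads (Benjamini-Hochberg adjusted p under 0.05 and a difference of 20 points or more) called 208 of 1995226 windows (0.0104%), 130 of them higher in the female file. At 10 or more reads per CpG it called 93 windows, and at a difference of 10 points 782. Of the 208 windows called at 20 points, 150 were partly methylated, 50 high, 8 low and 0 unmethylated. The test compares 2 files and not the sexes, and 111146 windows (5.57%) had an unadjusted p under 0.05.

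Gene starts held most unmethylated windows of B cells. Of the 25249, 15614 (61.8%) had their centre within 1 kb of an annotated gene start, a place that held 4.24% of all windows. Introns held 20.3%, intergenic sequence 10.4% and exons 7.41%. Low windows were spread further, with 25.9% at gene starts, 38.4% in introns and 29.1% between genes. Partly methylated windows lay mostly in introns (42.6%) and between genes (45.8%), close to the 44.1% and 47.1% of all windows there. Seen from the place, 18.5% of windows at gene starts were unmethylated, against 2.07% in exons, 0.583% in introns and 0.28% between genes. Even at gene starts, 63.6% of windows were high. Gene starts here are those of every annotated gene type, a wider set than the promoters read further on.

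**Figure D3:**
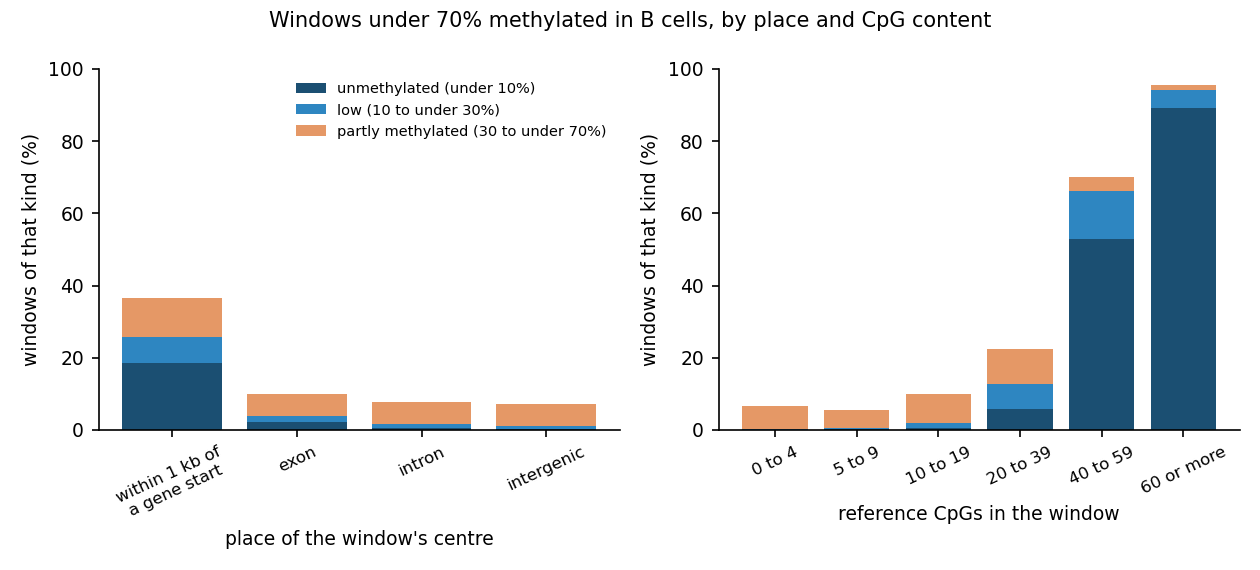
Share of windows (%) that were unmethylated, low or partly methylated in B cells, by the place of the window's centre (left) and by the number of reference CpGs in it (right); the rest up to 100% were high. Unmethylated windows make up 18.5% at gene starts, 89.3% of windows with 60 or more CpGs and 0.0676% of those with 0 to 4.

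The share of unmethylated windows was larger the more CpGs a window held. Of windows with 10 to 19 reference CpGs, 0.466% were unmethylated. The share was 5.76% at 20 to 39 CpGs, 52.8% at 40 to 59 and 89.3% at 60 or more. Windows of like density still differed by place. At 40 to 59 CpGs the median level was 4.09% at gene starts and 91.7% in windows over 2 kb from every gene start. At 60 or more CpGs the medians were 0.896% and 4.18%, and 64.9% of the 1571 distant windows were unmethylated.

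The profile around starts of coding genes followed the CpG content of the 1 kb centred on the start. Averaged over 9815 CpG-rich starts (observed over expected CpGs of 0.6 or more), B cell methylation was lowest in the 100 bp after the start, at 1.86% in the female and 1.68% in the male file. It was under 50% in every 100 bp bin centred from -750 to 1250 bp, so that the dip reached further into the gene than upstream. At 950 bp the level was 56.2% upstream and 30.6% downstream. The 8128 CpG-poor starts (under 0.4) had a shallow dip, to 62.9% and 62.8% just before the start. The 2851 starts in between reached 16.1% and 16.0%. In the outermost upstream bin the 3 kinds were alike, at 81.7%, 82.8% and 81.9%.

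**Figure D4:**
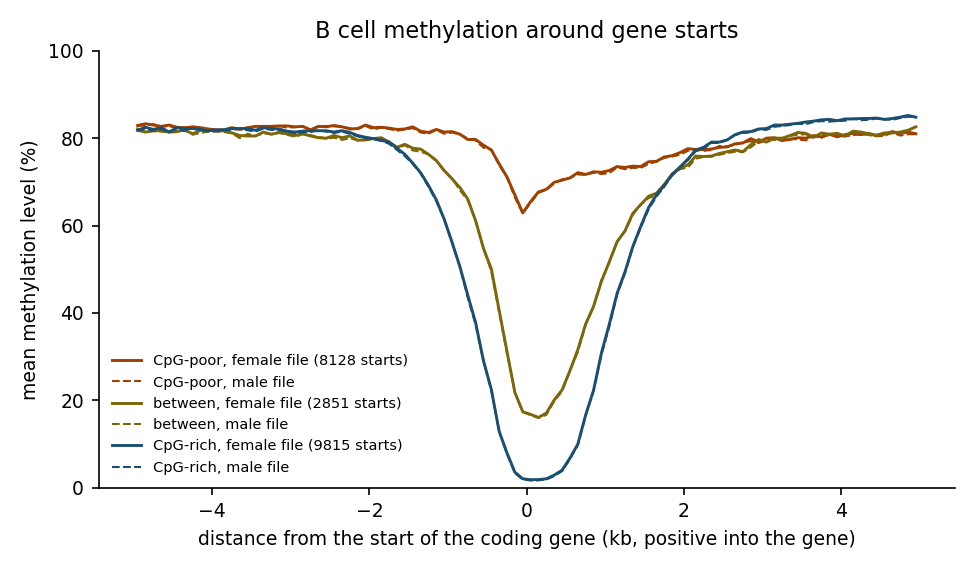
Mean methylation level (%) in bins of 100 bp around the starts of coding genes, each start counted once per bin, for CpG-rich, CpG-poor and intermediate starts in the female (solid) and male (dashed) B cell files; distance is in kb, positive into the gene. The lines of the 2 files overlie each other, and the lowest bins lie at 1.86%, 62.9% and 16.1% in the female file.

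Promoters of named gene groups were then read in all 4 files. Of 29575 promoters tested by a quasi-binomial model (terms for sex and for cell type, limma's squeezed dispersion, Benjamini-Hochberg adjusted p under 0.05 and 20 points or more), 417 were called between B and T cells (1.41%). Of these, 178 were lower in B cells (0.602%) and 239 higher (0.808%). Over all promoters 34.5% were unmethylated, 15% low, 9.94% partly methylated and 40.5% high in B cells. The median B cell level was 31.7% and the median B minus T difference 0.122 points. The lists are textbook groups chosen with earlier results of these data known, and their counts are set beside these shares.

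Of 15 promoters of B cell surface and antigen receptor genes, 5 were unmethylated (33.3%), 6 low (40%), 3 partly methylated and 1 high in B cells, with a median of 12.5% in the female and 15.3% in the male file, against 66.2% and 64.4% in T cells. The model called 9 of the 15 lower in B cells and 0 higher. Fcrla, an Fc receptor-like protein kept inside B cells, was at 13.9% and 19.6%, with T cells at 91.6% and 90.6% (adjusted p 5.05e-06). Blnk, the adaptor that links the receptor to its downstream kinases, was at 12.6% and 9.71% against 56.9% and 62.5%, and Cd79b, the partner of Cd79a, at 8.19% and 9.91% against 35.9% and 45.8%. The list was not uniform. Cxcr5, the receptor that guides B cells into follicles, was high at its annotated start in all 4 files, at 86.4% to 89.6%. Cd37 stood at 4.26% and 3.05% in B cells and 6.80% and 6.90% in T cells and was not called. Vpreb3 was at 57.6% and 58.1% against 69.8% and 66.9% and was not called. The calls of Cd22 and Blk were lost with promoters of 500 bp to either side, where B minus T was -19.2 and -12.1 points.

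Transcription factors of the B lineage differed from that group. Of 16, 12 were unmethylated and 3 low in B cells, and the median promoter was at 3.86% and 2.96% in B cells and 4.90% and 4.61% in T cells. Only Spib and Pou2af1 were called, both lower in B cells. Spib, an Ets factor of B cells and plasmacytoid dendritic cells, was at 19.4% and 25.2% against 69.2% and 75.5% (adjusted p 1.37e-05). Pou2af1, the coactivator of the octamer factors, was at 6.67% and 6.56% against 47.2% and 45.7% (adjusted p 6.95e-06). Foxo1, Foxp1, Bcl11a and Klf2 were between 0% and 1.21% in the B cell files and between 0.0418% and 1.39% in the T cell files. Mef2c was the exception at 96% and 95.7% in B cells, with its annotated start also at 95.4% in both T cell files.

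Antigen presentation genes were mixed. Of 9, 2 were unmethylated, 5 low and 2 high in B cells, and 2 were called lower than in T cells. Cd74, the invariant chain of MHC class II, stood at 29.1% and 21.9%, while T cells had 87.3% and 87.1% (adjusted p 3.65e-05). H2-Aa was at 24.1% and 22.4% against 52.1% and 53.9% (adjusted p 0.00640), but at 10 or more reads per CpG the difference was -2.02 points and the call was lost. Ciita, the master regulator of class II genes, was high at its annotated start, 91.4% and 85.2% in B cells, and so was H2-Ab1 at 74.4% and 73.6%. Neither was called.

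Genes used later in the B cell response, in germinal centres and plasma cells, were not uniformly methylated in resting B cells. Of 10, 5 were unmethylated, among them Bcl6 (0.164% and 0.275%), which drives the germinal centre, Prdm1 (7.16% and 6.25%) and Xbp1 (4.37% and 2.78%), which drive plasma cell secretion. Jchain, which joins secreted immunoglobulin, was high at 87.8% and 86.2%. Mzb1, a chaperone of immunoglobulin assembly, was the only gene called, at 28.4% and 33.4%, with T cells at 82.5% and 77.9% (adjusted p 1.31e-05). Of 9 progenitor genes, Kit and Flt3 were unmethylated in all files, between 2.58% and 5.79%. Rag1 was at 32.2% and 31.4% and Rag2 at 25.1% and 24.1%, with T cells at 26.5% and 34%, and 24.2% and 21.3%. Igll1, which encodes part of the surrogate light chain, stood at 15.7% and 17.4% in B cells and at 85.0% and 87.2% in T cells (adjusted p 6.27e-06), the 1 call of that list.

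Markers of other blood cells were read in the same way. Of 19 T cell genes, 11 were high (57.9%, against 40.5% of all promoters), 3 partly methylated, 3 low and 2 unmethylated, with medians of 73.3% and 70.3% in B cells and 12.6% and 14.8% in T cells. The model called 13 higher in B cells and 0 lower. Cd3e and Cd247, which encode signalling chains of the T cell receptor, were at 83% to 86.6% in the B cell files and 1.87% to 3.45% in the T cell files. Cd8a had the smallest difference of those called, 20.9 points, and it was no longer called without the female T cell file, at 19 points. Gata3, Bcl11b, Tcf7 and Thy1 were low or unmethylated in B cells too, at 2.14% to 17.3%. Of 11 myeloid genes, 7 were high (63.6%), 3 partly methylated and 1 low (Cd14, at 15.3% and 17.9%), and 0 were called. Of 7 natural killer genes, 3 were high (42.9%) and 1 was called higher in B cells, Nkg7, at 59.0% and 62.4%. Of 5 erythroid genes measured, 3 were low and 1 high, and Ahsp was not measured. These levels describe promoters and were not converted into shares of other cells.

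Germ cell genes, which most body cells keep methylated, had the highest levels. Of 9 measured (all but Taf7l2), 8 were high and Dazl was partly methylated at 53.2% and 63.4%, and the median was 94.7% and 95.5%. Imprinted promoters gathered in the middle. Of 18, 11 were partly methylated, 4 high, 2 low and 1 unmethylated, with medians of 55.0% and 50.6%. Peg3 was at 46.4% and 44.4%, Kcnq1ot1 at 41.8% and 44.0% and Airn at 48.8% and 47.5%. Mest stood at 94.4% and 94.6% and Snrpn at 76.7% and 75.5% at the annotated gene starts used here, and the Mest run of partly methylated windows described further on lies inside the gene. Broadly expressed genes were mostly free of methylation, with 7 of 10 unmethylated and medians of 4.14% and 2.29%. None of these 3 lists had a called promoter.

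**Figure D5:**
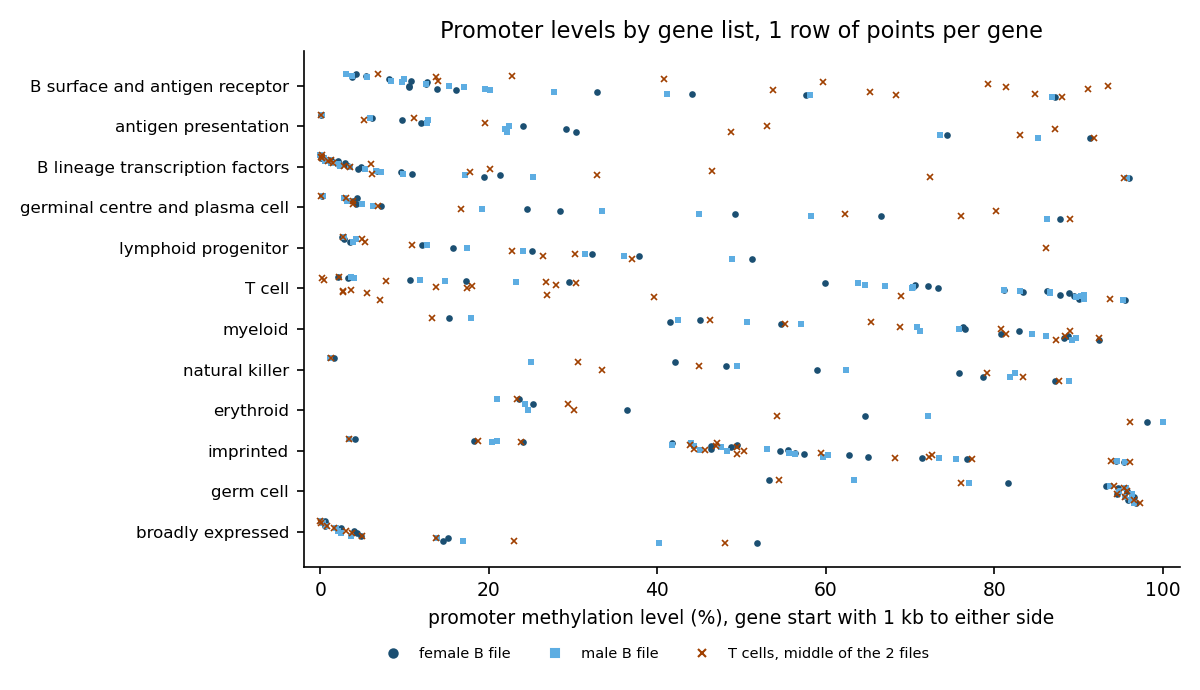
Promoter methylation level (%) of each gene in the 12 lists, with 1 row of points per gene: female B cell file (circles), male B cell file (squares) and the middle of the 2 T cell files (crosses). Most B cell points lie at the left for B lineage transcription factors and broadly expressed genes, in the middle for imprinted genes, and at the right for T cell and germ cell genes.

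The 25249 unmethylated windows formed 16453 runs, 10255 of them a single window, 229 of 5 kb or more and 5 of 10 kb or more. The longest, 11 kb each, covered Skor1 (9: 63141001-63152000), a corepressor of neurons, at 4.61% and 4.56%, and the start of Dmrt3 (19: 25602001-25613000), a factor of spinal interneurons, at 4.69% and 4.32%. Runs of 10 kb lay at Dmrta2, Dlx2 and Foxb1, and runs of 9 kb at Zfp36l2, Zic2, Bcl11a, Fezf2 and Tfap2d. Zfp36l2, an RNA-binding protein that restrains lymphocyte division, and Bcl11a, a factor needed for lymphoid development, had the lowest levels of the 10, at 1.06% and 0.789%, and at 0.850% and 0.380%. In T cells the 10 runs stood between 1.26% and 8.67%. For all runs here and below, T cell levels are means over windows, while B cell levels are pooled over reads. The runs were chosen on B cell levels alone.

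Of the 18528 coding genes with a window over 2 kb from every gene start, 5070 (27.4%) had 1 or more such window that was unmethylated or low, and 565 had 5 or more. The most were counted over Gm20388 (143), a readthrough annotation that spans many genes, and Fgfr2 (52), whose annotation covers 2593 such windows. Foxp1 followed with 32 of 576 windows, Gse1 with 29 of 338, Gm20696 with 27 of 381, Tfap2b with 25 of 27, Gata4 with 23 of 71, Pde4d with 22 of 1287, and Hoxc5 and Ostm1 with 21 each. Foxp1 is a forkhead factor of B cell development and follicular B cells, and Gm20696 overlaps it. By share among genes with 20 or more such windows, Tfap2b (92.6%), Pax6 (80%), Hoxc5 (75%), Lhx2 (75%), Lhx9 (57.1%), Hoxd3 (50%), Nr2e1 (50%), Csk (40%), Cyp26b1 (40%) and Pax1 (38.5%) led, against 1.31% of windows over all such genes. Of these 10, Csk alone is a known regulator of lymphocyte signalling, the kinase that holds Src family kinases inactive. In each of the 10 genes ranked by share the number of windows under 30% in T cells was within 1 of the B cell count. Among those ranked by number the counts lay further apart in Fgfr2 (52 in B and 42 in T cells), Gse1 (29 and 21), Pde4d (22 and 32) and Gata4 (23 and 25).

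Away from gene starts, the B cell files held 6955 unmethylated, 14825 low and 108623 partly methylated windows with their centre over 2 kb from every gene start. Of the unmethylated ones, 44.3% touched another unmethylated window and 28.0% lay within 1 kb of an annotated transcript start that is not a gene start. Of the low ones, 17.9% touched an unmethylated window, which left 12171 that stood apart. Low distant windows held a median of 13 CpGs, lay in introns (50.4%) or between genes (42.1%), and had a median level of 21.1% in the female and 20.6% in the male file. Their median distance to the nearest coding gene start was 25451 bp, against 73290 bp for high windows.

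Of distant windows with 10 or more CpGs, 35 had no methylated read in either B cell file, and the 10 with the most CpGs among them are named. Their floors, the share that 3 reads would make, were 0.154% to 0.926% per file. They lay in an exon of Set (2: 30066001-30067000, 109 CpGs, 977 and 1377 reads), introns of Mxi1, Zbtb7a, Ets1, Tecr, Dnmt3a and Zfp516, and exons of Spg7, Tpm3 and Gse1. All 10 lay within 1 kb of an annotated transcript start, at 7 to 452 bp from it. Ets1, a factor of lymphocyte survival, and Dnmt3a, a methyltransferase that writes new methylation, had such windows by inner transcript starts (9: 32696001-32697000 and 12: 3891001-3892000). In T cells the 10 were at 0% to 0.651%.

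To show what B cell DNA looks like at these levels, 300 bases outside exons are given from 3 kinds of region, those with the most measured CpGs in each, 5′ to 3′ with CpGs in capitals, from GRCm38 of RefSeq. The first is from the Mxi1 window with no methylated read (chr19:53313600-53313899, plus strand), the second from the low run in Spib (chr7:44528258-44528557, minus strand) and the third from the partly methylated run in Meis1 (chr11:19008042-19008341, minus strand), both runs being described after it.
Mxi1 intron: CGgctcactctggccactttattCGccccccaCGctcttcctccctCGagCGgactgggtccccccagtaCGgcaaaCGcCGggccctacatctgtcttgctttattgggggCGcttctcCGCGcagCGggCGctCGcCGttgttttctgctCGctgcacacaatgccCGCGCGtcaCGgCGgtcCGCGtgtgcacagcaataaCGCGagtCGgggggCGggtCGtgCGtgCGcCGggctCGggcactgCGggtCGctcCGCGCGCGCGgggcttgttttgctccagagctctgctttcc
Spib low run: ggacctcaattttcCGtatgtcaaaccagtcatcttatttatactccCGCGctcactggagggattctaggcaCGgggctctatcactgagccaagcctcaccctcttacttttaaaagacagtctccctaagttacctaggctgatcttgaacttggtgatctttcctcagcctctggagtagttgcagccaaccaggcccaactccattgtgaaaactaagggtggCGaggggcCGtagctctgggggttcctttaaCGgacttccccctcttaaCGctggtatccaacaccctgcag
Meis1 partly methylated run: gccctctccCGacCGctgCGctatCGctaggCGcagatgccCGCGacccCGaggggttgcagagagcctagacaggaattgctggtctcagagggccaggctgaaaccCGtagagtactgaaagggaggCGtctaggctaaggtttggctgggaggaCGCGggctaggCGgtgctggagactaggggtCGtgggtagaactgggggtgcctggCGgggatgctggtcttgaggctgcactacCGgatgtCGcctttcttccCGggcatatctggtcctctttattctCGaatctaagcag

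The Mxi1 stretch held 39 CpGs with 0 methylated of 644 and 742 B cell reads, summed over its CpGs, with floors of 0.466% and 0.404%. The Spib stretch held 8 CpGs at 14.8% and 14.4% in B cells and 35.3% and 31.2% in T cells, and its single CpGs ran from 0% to 67.9% over both B cell files. The Meis1 stretch held 19 CpGs at 24.6% in female and 37.6% in male B cells and at 73.6% and 71% in T cells, with single CpGs from 3.70% to 62.1% in B cells. In both of these stretches the level was thus an average over CpGs of unequal level.

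Low windows formed 21173 runs, 19052 of them single windows. The longest, 11 kb, lay at Gm21188 and Gm36079 (13: 120024001-120035000). Runs of 9 kb lay in the Hoxc5 and Hoxc6 region and in a stretch of chromosome 6 with no coding gene (6: 6847001-6856000), and runs of 6 kb by Foxf1, in Dlx5 and in 2 regions with no coding gene. In these the B and T cell files lay close together, at 11.5% to 22.5% and, as means over windows, 12.9% to 22.3%. The 6 kb run over the body of Spib (7: 44526001-44532000) stood apart, at 16.9% and 19.5% in B cells over 1533 and 1644 reads. T cells stood at 58.7% and 60.1% there, as means over windows. The Spib run was the only 1 of the 10 longest low runs in which the cells differed by over 10 points.

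Partly methylated windows formed 108480 runs, and 2268 of these were 3 kb or longer. The longest by far was 23 kb of chromosome 1 where no coding gene is annotated (1: 63249001-63272000), at 51.6% and 48.2% in B cells and 48.4% and 47.6% in T cells. Of the runs in coding genes, several lay in imprinted genes. An 8 kb run outside coding genes (9: 89877001-89885000, 52.2% and 49.3%) lay before the start of Rasgrf1 (9: 89909908), a member of the imprinted list. Whether the runs outside coding genes belong to imprinted loci was not tested. Gnas had runs of 8 kb (43.3% and 48.7%) and 6 kb (46.5% and 50.7%), Mest a run of 6 kb (47.7% and 48.7%) and Peg3 with Usp29 a run of 6 kb (52.2% and 50.4%). Meis1, a homeobox factor of blood stem cells, had a 7 kb run (11: 19007001-19014000) at 44.6% and 52.9% in B cells. T cells stood at 81.3% and 83.7% there, as means over windows. An 8 kb run in Cep85 (4: 134159001-134167000) differed between the B cell files, at 62.4% in the female over 1493 reads and 32.0% in the male over 1570 reads, with T cells at 60.6% and 51.1%. No other of the 10 longest runs had so wide a gap between the B cell files. The Cep85 run overlaps an endogenous retrovirus that the paper on these data lists as varying in methylation between individual mice. What sets the gap between the files was not tested.

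Of the 125996 partly methylated windows, 71580 (56.8%) held 3 to 9 measured CpGs and had a median level of 61.7%, and 523 (0.415%) held 40 or more and had a median of 44.8%. Those with 40 or more lay at gene starts in 43.8% of cases, where 49.5% of all windows with 40 to 59 reference CpGs and 77.1% of those with 60 or more lay. The 10 with the most CpGs lay in Dact3 (150 CpGs, 39.1% and 30.5% in the female and male file), Apba1 (123), Rbmxl2 (114), Cdkn1c (113), Tmem267 (113), Igf2r (109), Gal3st3 (105) and Basp1 (104), at Gm21863 (106), and in a window of chromosome 17 outside coding genes (17: 39844001-39845000, 125 CpGs). Cdkn1c (37.2% and 29.1%) and Igf2r (44.7% and 40.6%) are imprinted. The chromosome 17 window drew 105574 and 128046 reads, summed over its CpGs, against 1795 and 2084 in Dact3, and stood at 32.2% and 28.8%. Gal3st3 was at 58.6% in the female and 41.4% in the male file.

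The B cell classes were then set beside T cells window by window. The model called 41431 of 1950708 windows between B and T cells (2.12%), 18222 lower in B cells (0.934%) and 23209 higher (1.19%). With limma on log2 ratios of reads the calls were 21102, 8914 lower and 12188 higher, and the shares by class and gene body given here rest on the first count. Because the classes were cut from B cell levels, a low class can hold mostly windows lower in B cells, and the split by direction within a class is set by that choice. The share called in a class also depends on that choice, so the shares of different classes are not a fair comparison. Of unmethylated windows at gene starts, 63 of 15609 (0.404%) were called. Of unmethylated windows over 2 kb from a start, 588 of 6941 (8.47%) were called, and of low windows there 2635 of 14754 (17.9%), 2511 lower and 124 higher. Of partly methylated windows there, 15350 of 105924 (14.5%) were called, 11561 lower and 3789 higher. High windows there were called in 1.11%.

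Most low sequence of B cells was thus low in T cells as well. Of 21695 unmethylated or low distant windows that could be read in all 4 files, 15334 were under 30% in both T cell files and 1006 were at 70% or more in both. The 1006 held a median of 9 CpGs at 45.8% GC, with 59.7% of them in introns and 4.87% within 1 kb of a transcript start. The 15334 held a median of 18 CpGs at 49.4% GC, with 49.1% in introns and 18.8% near a transcript start. The first group lay farther from starts, at a median of 33839 bp from a coding gene start against 18489 bp, with no test of this difference.

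The bodies of the listed genes were read in the same way. Windows near inner transcript starts were kept, and their share was not counted by list. Which start B cells use was not tested. Over all coding genes, 1.48% of windows over 2 kb from a gene start were unmethylated or low, and 1.21% were called lower in B cells. In the B surface list 13.8% of 240 such windows in 14 genes were called lower, 11 of them in Blnk and 9 in Cxcr5, whose annotated start was methylated in all files. In Vpreb3, whose start was partly methylated in B cells, both of the 2 such windows were called lower, 1 unmethylated and 1 low. In the antigen presentation list 10.2% of 157 windows were called lower, 10 of them in Ciita, whose annotated start was also methylated. In the list of B lineage transcription factors 5.44% of 2078 windows were unmethylated or low, which was no more than in 3 short lists of other genes, natural killer (6.90% of 29 windows, with 6.90% called lower), broadly expressed (6.56% of 61) and erythroid (5.56% of 18). There 137 (6.59%) were called lower in B cells and 166 (7.99%) higher, where all coding genes had 1.66% higher. Foxp1 had 37 lower and 39 higher of 576 windows, and Ebf1, which opens the B cell programme, 23 lower and 7 higher of 372. Mef2c, methylated at its annotated start, had 14 lower and 1 higher of 146. Bach2, which holds B cells back from plasma cell fate, had 6 lower and 58 higher of 328 windows. Ikzf1, which encodes Ikaros, had 1 lower and 35 higher of 76. Pax5 had 7 lower and 2 higher among 165 windows. In the T cell list 44.1% of 472 windows were called higher in B cells and 1.06% lower, again beside 1.66% and 1.21% over all coding genes.

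Last, 12 motifs were counted on both strands of every window, as spelled-out letters that can overlap each other. In the 12171 low distant windows that touched no unmethylated window, the PU.1 core GAGGAAGT was found in 13.3%, against 6.03% of all windows and 5.62% of high distant windows. The EBF core CCCNNGGG was found in 29.3% against 16.1% of all windows, the RUNX motif TGTGGTT in 28.5% against 21.7% and the CTCF core CNAGGTGGC in 5.73% against 2.64%. The octamer ATTTGCAT was found in 6.48%, below the 7.88% of all windows. The E-box CAGGTG stood at 56.2% against 47.8%, the NF-kB core GGGANTTCC at 4.18% against 2.70%, the composite core GGAANNGAA at 31.3% against 28.5%, MEF2 CTAAAAATA at 3.15% against 2.48% and AP-1 TGANTCA at 27.9% against 26.7%. The CpG-bearing motifs SP/KLF CCGCCC (24.7% against 10.2%) and ETS CCGGAAG (7.13% against 3.27%) were also more frequent there. In unmethylated windows AP-1 (16.8%), RUNX (15.5%), the octamer (4.12%), the composite core (25.1%) and MEF2 (1.58%) were below all windows, while SP/KLF was in 70.9%, the E-box in 53.9%, the EBF core in 45.2%, the ETS motif with a CpG in 18.3%, the CTCF core in 5.92% and the NF-kB core in 4.50%. The PU.1 core was in 7.93% of unmethylated and 10.5% of partly methylated windows, also above the 6.03% of all windows. The low distant windows had a GC content of 47.1% and all windows 42.5%, and the part of base content in these shares was not tested.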

How the data were processed

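DNA from pooled B and T cells was sequenced after bisulfite treatment. The methylation values deposited by the authors are, per CpG, a fraction of methylated reads to 3 decimals and a read count (coverage), with strands merged and every entry at 5 or more reads. The submitters' processing notes name Trim Galore, FastQC, Bismark 0.13.1 and mm10, and the sources used here do not give the conversion rate or whether duplicate reads were dropped. The labels state that part of each library was oxidised, and the files used are named as plain bisulfite. Positions count from 0 in the files and were raised by 1, after which all entries lay on reference CpGs.

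Methylated reads were fraction times coverage, rounded. Coverage added over autosomal CpGs was 278275973 in the female and 309917919 in the male B cell file. In the T cell files it was 339923001 and 333249103. The files took in 93.2% to 94.6% of autosomal CpGs. CpGs below 5 reads were left out, so poorly mapped repeats may be under-represented, which was not measured. Reads were summed in 1 kb windows and in promoters (GENCODE M21 gene starts, 1 kb to either side). Promoters were those of coding and long noncoding RNA genes, while windows were placed by gene starts of every type. B and T cells were compared across all windows or promoters by a quasi-binomial logistic model (cell type, sex, 1 residual degree of freedom) with the dispersion squeezed by limma 3.58.1 in R 4.3.3. The prior came from features with 5 or more expected methylated and unmethylated reads in every file. Its degrees of freedom were infinite for windows, so window p-values rest on a common dispersion of 1.31. The 2 B cell files were compared by Fisher's exact test, which takes the counts within a window as independent. P-values were adjusted by the Benjamini-Hochberg method and the scripts were tested on simulated data. Intervals and floors cover counting error only. Reads counted at several CpGs are not independent counts. This, and any kept PCR duplicates, would make intervals too narrow and floors too low.

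Members, gene lists, motifs and tests were chosen with earlier results of these data known. Named were the 3 markers, members of the lists, the 10 longest unmethylated runs, the genes with most or the largest share of low windows, the 10 lowest distant windows with 10 or more CpGs (ties by CpG number), the 10 partly methylated windows with most CpGs, and the 5 windows of largest difference between the B cell files each way. The longest low and partly methylated runs, and genes named for called windows in their bodies, were chosen after their values were seen. Sex chromosomes were not used. Some list members, counted within their lists, and 1 promoter sequence are not reported here.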

Additional observations from a re-analysis of the deposited data

How the results depend on the processing

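Of 60 alternatives, 44 left a count within 1.5 times of its reported value, 11 moved a count further and 5 moved the B cell level beyond counting error. None of the 29 called promoters of the gene lists changed direction. The B cell level was 80.7% as a mean over CpGs, 79.7% at 10 reads per CpG, and 80.0% without CpGs of over 200 reads, which was chosen after seeing the data, and it ran from 79.7% to 80.6% with 1 file alone. Windows of 500 bp gave 58280 unmethylated and 42728 low windows. Windows of 2 kb gave 10374 unmethylated, 13098 low, 66530 partly methylated and 1066665 high windows, fewer by construction. Limits of 20%, 40% and 60% left 50137 partly methylated windows, a narrower range by construction. The unmethylated and low distant windows numbered 21780, and 17306 over 2 kb from every transcript start, an alternative chosen after seeing the data. A difference of 10 points raised the windows called between B and T cells to 84041, and limma on log2 ratios of reads with a pseudocount of 1 lowered them to 21102; the cause of the second was not tested. Leaving out each file in turn, with no term for sex and the lone file of a cell type assumed to vary like the others, gave 40413 to 41491 windows and 376 to 417 promoters. Between the B cell files a difference of 10 points gave 782 windows and 10 reads per CpG 93. Of the 29 promoters, 27 stayed called at 10 reads per CpG, where Cd8a and H2-Aa were lost, and 27 with 500 bp to either side. The sex term sets the B and T cell files of a sex side by side. Without it 36519 windows were called, and 35059 by Fisher's exact test in each sex.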

Other observations

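Over 23552 bins of 100 kb with 50 or more windows, the median B cell level was 90.8%, with 5% of bins under 85.5% and 15 bins under 70%. The 4 lowest bins held homeobox and Zic genes, which pattern the embryo. The bin of Hoxc5 to Hoxc13 (15: 102900001-103000000) had a median of 11.1% in female and 10.2% in male B cells and 11.2% and 11.3% in T cells. The Hoxa bin (6: 52200001-52300000) stood at 23.6% and 25.4% in B cells and 36.8% and 32.7% in T cells, the Zic1 and Zic4 bin at 26.3% and 30.2%, and the Hoxd9 to Hoxd13 bin at 36.1% and 29.4%. A bin of histone genes on chromosome 13 was at 58.8% and 58.5%. By chromosome, the pooled level ran from 76.0% on chromosome 11, which had the most unmethylated windows at 2.03%, to 81.9% on chromosome 18.

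The 5 largest differences each way between the B cell files were as follows. A window 3416 bp from the start of C1s2 (6: 124639001-124640000) was 89.9% methylated over 365 reads in the female and 27.3% over 1167 reads in the male file, with T cells at 94.9% and 21.4%. A window on chromosome 17 (52032001-52033000) was at 88.0% over 83 and 48.5% over 227 reads, with T cells at 89.7% and 39.8%. The other windows higher in the female file lay in introns of Bbox1 (100% and 51.4%, T cells 67.4% and 61.5%) and Zranb3 (62.5% and 22.4%, T cells 63.6% and 65.2%) and 55750 bp from Pttg1 (73.4% and 33.9%, T cells 88.5% and 92%), and held 3 to 7 CpGs. Higher in the male file were an exon of Rfc3 (28.1% and 60.2%, T cells 67.2% and 73.1%), an intron of Gm5796 (50.7% and 87.5%, T cells 68.8% and 71.6%), and windows nearest to Ubl7 (57.7% and 90.3%, T cells 93.1% and 100%), Kcnv1 (50% and 100%, T cells 100% and 81%) and Pcdh20 (68.1% and 100%, T cells not measured). These have 30 to 113 reads per file, and what sets the differences was not tested.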
